A study of Mus musculus with 26 samples.

Results

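The genes described here are 10 interferon-induced antiviral effectors of the mouse, Oas1a, Oas2, Oas3, Oasl1, Oasl2, Ifit1, Ifit2, Ifit3, Isg15 and Rsad2. They were taken by symbol from a knockdown table of 55487 genes and a regeneration table of 53465 genes, and all 10 were listed in both. The genes were selected on results of these tables already known, namely Mettl3 knockdown against control and the days after muscle injury. The values of those comparisons are therefore a description. Where members past the threshold of a model fitted to all genes are counted there, the count stands beside the share of all genes past it and is no evidence of a difference, because the same values chose the members.

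METTL3 is the enzyme that writes N6-methyladenosine (m6A) on RNA, and the study asked what it does in regenerating muscle and in differentiating myoblasts. C2C12, a mouse skeletal myoblast line, was sequenced in growth medium (GM, D0 in the labels) and after 3 days in differentiation medium (DM3, D3 in the labels), as control cells (Ctrl) and as Mettl3 knockdown cells (Cas9M3). The knockdown cells carried a lentiviral dCas9-KRAB repressor driven by the hUbC promoter, with guides against the Mettl3 promoter and puromycin selection, although the deposited design text speaks of a knockout. Whether the stable line is 1 clone, and which construct the control cells carried, is not given in the sources used here. Tibialis anterior (TA) muscle came from 6-week-old male C57BL/6J mice, on days 0, 1, 3, 5 and 10 after cardiotoxin (CTX), a venom protein that destroys muscle fibres. Saline is named as the control, and whether day 0 muscle had received it is not settled. Each of the 9 groups had 2 libraries. The study's methods speak in general of independent biological samples, but the sources used here do not say whether the libraries of a group came from separate cultures or animals, so any p measures only the spread between libraries, which may be technical. Of 26 libraries in the series, 8 of Mettl3 overexpression were not analysed here.

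The values are FPKM, in which the fragments counted on a gene are divided by gene length and by a scale set for each library. The steps between low values correspond to 14230000 to 29560000 reads on genes per library in the knockdown table and 14170000 to 18820000 in the regeneration table, and 1 read on a gene of 1 kb was worth 0.0315 to 0.104 FPKM. The scale did not simply follow the reads on genes. That 1 read was worth 0.104 FPKM in control GM replicate 2, with 14230000 reads, and 0.0681 FPKM in knockdown DM3 replicate 2, with 15090000. Mettl3 itself stood at 4.70 and 5.65 FPKM in the control GM libraries and 4.68 and 5.15 FPKM in those of DM3, against 0.331 and 0.118 FPKM in knockdown GM and 0.148 and 0.0805 FPKM in knockdown DM3. The C2C12 libraries of replicate 2 stood apart from those of replicate 1. Their highest gene was Gm23935, at 354500 FPKM in control GM, 45220 in knockdown GM and 60730 in knockdown DM3, or CT010467.1, at 32040 in control DM3. In replicate 1 it was mt-Co1, at 8003 to 10180 FPKM. Reads on genes were 14230000 to 18890000 in replicate 2 and 25160000 to 29560000 in replicate 1. In the C2C12 libraries 4 of 6 macrophage markers (Adgre1, Itgam, C1qa and C1qb) and 5 of 6 T and NK cell markers were at 0 throughout. In the muscle table, 5 of 10 libraries (both of day 0, both of day 10 and replicate 2 of day 3) expressed Xist, the RNA of the inactive X chromosome, at 5.78 to 10.0 FPKM, although the mice are described as male. The other 5 expressed Y-linked genes.

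Type I interferon acts through the receptor IFNAR and its kinases on a transcription factor complex that contains IRF9. This complex binds the interferon-stimulated response element (ISRE) of target promoters. The Oas proteins sense double-stranded RNA and make oligoadenylates, which serve as an antiviral second messenger, the Ifit proteins bind foreign or incompletely capped RNA, Isg15 is a ubiquitin-like modifier, and Rsad2 (viperin) is an enzyme that makes a chain-terminating nucleotide. Isolated myoblasts and whole muscle both respond to interferon. Oas2, Oas3 and Oas1a are neighbours on chromosome 5, as are Oasl2 and Oasl1 elsewhere on it, and Ifit2, Ifit3 and Ifit1 lie within 99.3 kb of chromosome 19 (GRCm38). Isg15 is on chromosome 4 and Rsad2 on chromosome 12.

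Promoters were searched for an ISRE-type motif. The members were chosen as interferon-induced genes, and several are neighbouring relatives. Their share with the motif is therefore a description and lends no support. The search used RefSeq promoters of GRCm38.p6, 250 bases before to 50 after each gene start, and the letters GAAANNGAAA or their reverse complement TTTCNNTTTC, with overlapping matches counted. Of 9 members with a promoter in this set, 6 held the motif, against 3.443% of 32851 promoters and 3.993% of 27025 genes. The windows are printed 5′ to 3′ on the strand of the gene, with the matched letters in capitals, because they show how closely the copies are packed in the genes whose levels are described next.
Isg15, chr4:156200871-156200900, minus strand: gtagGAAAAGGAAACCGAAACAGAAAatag
Oas1a, chr5:120907523-120907552, minus strand: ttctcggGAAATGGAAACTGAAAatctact
Oas3, chr5:120777715-120777744, minus strand: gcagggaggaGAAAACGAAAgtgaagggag
Ifit1, chr19:34640785-34640814, plus strand: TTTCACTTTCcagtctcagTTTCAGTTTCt
Ifit3, distal, chr19:34583363-34583392, plus strand: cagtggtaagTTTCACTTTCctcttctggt
Ifit3, proximal, chr19:34583397-34583426, plus strand: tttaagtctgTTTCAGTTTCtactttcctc
Rsad2, chr12:26456553-26456582, minus strand: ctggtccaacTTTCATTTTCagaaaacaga
Isg15 held 3 overlapping copies that began 78 bases upstream of the start, and Oas1a held 2 that began 20 bases upstream. Ifit1 and Ifit3 held 2 separate copies each on the opposite strand. Oasl1, Oasl2 and Ifit2 held no match to these letters in the window, which says only that the letters are not there. A second motif, TTCNNNGAA, was held by 2 of the 9 members, against 9.554% of 27025 genes and 8.298% of all promoters.

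On DM3, each of the 10 genes was higher in both Mettl3 knockdown libraries than in both control libraries. Their summed level was 493.5 and 490.1 FPKM in knockdown cells and 32.5 and 36.5 FPKM in control cells. Ifit3, Ifit1 and Isg15 held most of that sum, while the Oas genes went from about 0 to a few FPKM. In GM all of the genes except Ifit2 differed more between the 2 knockdown libraries than on DM3. The sums were 13.3 and 21.7 FPKM in control GM, and 20.3 and 94.96 FPKM in knockdown GM.

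The filter on low values asked for 0.5 FPKM or more in 2 or more libraries of the table. Of the 10 members, 8 passed it in the knockdown table, and Oasl1 and Rsad2 did not. Oas1a, Oas2, Oas3 and Oasl2 passed only through knockdown libraries, so they had to differ, and counts over the 8 lend no support. All 8 had groups that did not overlap on DM3, where 29.3% of 13824 genes tested did so in this direction. The fit (limma on log2 of FPKM + 0.1, adjusted over all genes) called 2 of the 8, Oas1a and Ifit1, beside 1.29% of all genes called higher. With the replicate number as a block it called 4, Oas1a, Oas2, Oasl2 and Ifit1, beside 2.31%. Leaving out either DM3 control or either DM3 knockdown library gave 0 of 8, and leaving out any of the 4 GM libraries gave 5 or 6. A fit of the DM3 libraries alone called 8 of 8, and pseudocounts of 1 and 0.01 gave 5 and 1. The share of all genes called is not given here for the fits named after the block. Those counts therefore show only how the calls depend on the setting.

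The Oas1 to Oas3 synthetases were close to absent in control cells. Oas1a was at 0 in both control GM libraries and at 0.0193 and 0 FPKM in control DM3, against 0.353 and 3.67 FPKM in knockdown GM and 6.28 and 6.25 FPKM in knockdown DM3. Its DM3 ratio rests on 503 reads against 1, which is 521-fold with a 95% interval of 93.0 to 20610 that covers counting error only. Of the windows of 100 bases along Oas1a transcripts, 40.87% also occur in Oas1g, a near copy listed at 0.629 and 0.465 FPKM in knockdown DM3 and at 0 in all 4 control libraries, so reads could be split between them.

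Oas2 was at 0 in both control GM libraries and at 0.0164 and 0 FPKM in control DM3. It was at 0.0712 and 1.86 FPKM in knockdown GM and at 6.15 and 4.77 FPKM in knockdown DM3. The DM3 ratio, from 1075 reads against 2, was 557-fold with an interval of 154 to 4601. An exon of Gm43068 overlaps Oas2 on the other strand, and the strand used for counting is not given in the sources used here.

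Oas3, the largest synthetase, was at 0 in all 4 control libraries, at 0.0717 and 0.393 FPKM in knockdown GM and at 1.20 and 0.857 FPKM in knockdown DM3. Against a floor of 3 reads over both control libraries it was at least 112.5-fold higher on DM3 and at least 18.5-fold higher in GM. The same floor gave at least 41.0-fold for Oas1a and at least 44.8-fold for Oas2 in GM, where replicate 2 carried most of the level in all 3 genes.

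The Oas-like pair differed in level. Oasl2, which keeps synthetase activity and carries ubiquitin-like domains, was detected in control cells, at 0.183 and 0.309 FPKM in GM and 0.280 and 0.443 FPKM on DM3. It stood at 0.527 and 6.73 FPKM in knockdown GM and 24.1 and 23.8 FPKM in knockdown DM3, a log2 fold change on DM3 of 5.72 ± 1.01 (SE, n = 2 against 2). Oasl1, which lacks that activity, was at 0 in all 4 control libraries and in replicate 1 of knockdown GM, at 0.313 FPKM in replicate 2, and at 0.151 and 0.365 FPKM in knockdown DM3. Its floor-based ratio was at least 8.63-fold on DM3 from 25 reads, and Gm13822 overlaps its exons on the other strand.

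The Ifit genes ranged from the least to among the most different of the set. Ifit1, which binds RNA ends that lack cap methylation, was at 0.225 and 0.975 FPKM in control GM and 0.645 and 1.36 FPKM in control DM3. It was at 1.83 and 18.5 FPKM in knockdown GM and 112 and 98.4 FPKM in knockdown DM3. The log2 fold change on DM3 was 6.66 ± 1.09 (SE), the highest fitted value among the 8.

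Ifit3 had the highest level of the set in knockdown DM3, at 248 and 237 FPKM against 12.5 and 14.4 FPKM in control DM3. In GM its groups overlapped, with 1.57 and 5.46 FPKM in control and 2.02 and 25.03 FPKM in knockdown cells. The near copy Ifit3b, which shares 31.65% of the 100-base windows of Ifit3, was at 41.4 and 40.0 FPKM in knockdown DM3 and 1.22 and 1.29 FPKM in control DM3.

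Ifit2 was the member least different between knockdown and control. It was already at 9.82 and 4.33 FPKM in control GM and 13.5 and 13.9 FPKM in control DM3, against 11.0 and 10.53 FPKM in knockdown GM and 30.6 and 26.0 FPKM in knockdown DM3. Its log2 fold changes were 0.71 ± 0.36 in GM and 1.03 ± 0.36 on DM3 (SE).

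Isg15 was at 5.55 and 6.32 FPKM in control DM3 and 64.2 and 91.99 FPKM in knockdown DM3, a log2 fold change of 3.67 ± 1.09 (SE). In GM the groups overlapped, because replicate 2 was the higher library of both arms, with 1.48 and 10.6 FPKM in control and 4.37 and 27.7 FPKM in knockdown cells. Within the same replicate number the knockdown to control ratio in GM was 2.96 for number 1 and 2.61 for number 2. Rsad2 was at 0 in all 4 control libraries, at 0.0585 and 0.163 FPKM in knockdown GM and at 0.339 and 0.330 FPKM in knockdown DM3, at least 21.4-fold above the floor on DM3.

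**Figure D1:**
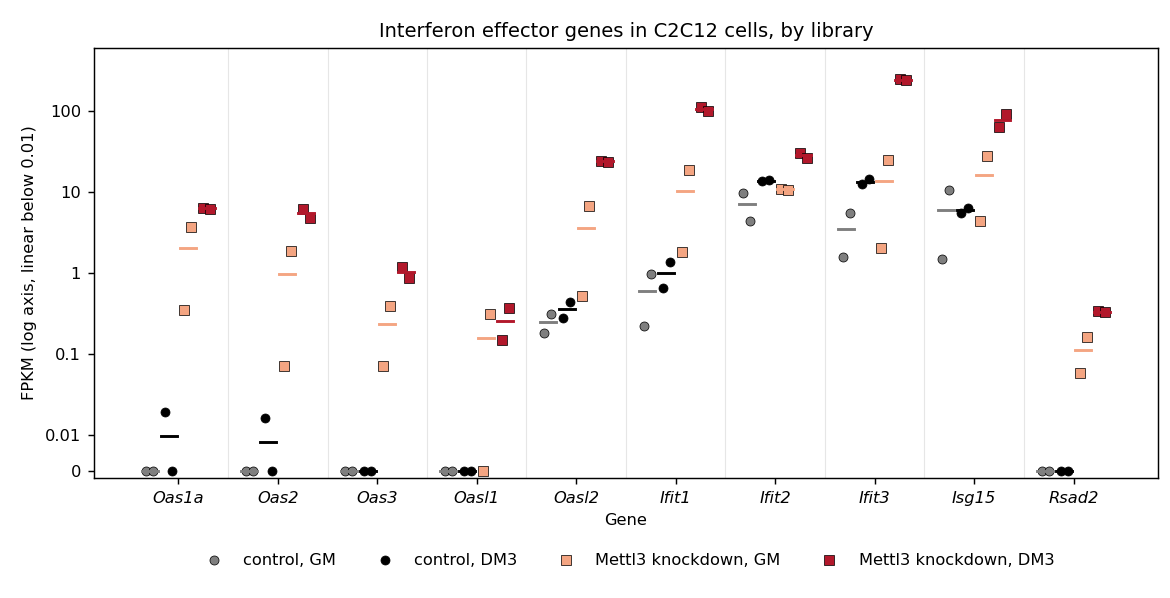
FPKM of each of the 10 genes (log axis, linear below 0.01) in every C2C12 library, with circles for control and squares for Mettl3 knockdown, paler in GM and darker on DM3, and short lines for group means. Both DM3 knockdown libraries lie above both DM3 control libraries for every gene, and the 2 GM knockdown libraries lie far apart for all genes other than Ifit2, with Rsad2 the next closest at 0.0585 and 0.163 FPKM.

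In GM, 6 of the 8 tested members had groups that did not overlap, beside 15.6% of all genes in this direction. None was called in GM (limma, 0 of 8 after adjustment, 3 of 8 at an unadjusted p under 0.05), and of all 13824 genes 0% were called higher. Knockdown exceeded control within both same-numbered pairs for 8 of 8 in GM and 8 of 8 on DM3, beside 30.0% and 37.1% of all genes. The ratio within pairs was 2.89 and 21.8 for Oasl2 in GM and 85.8 and 53.6 on DM3. For Ifit1 it was 8.11 and 19.02 in GM and 174 and 72.5 on DM3. Number 2 thus showed the larger ratio in GM and number 1 the larger on DM3 for both genes.

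The knockdown effect on DM3 minus that in GM was above 0 for all 8, from 0.32 ± 0.51 for Ifit2 to 3.32 ± 1.54 for Ifit1 on the log2 scale (SE). The fit of this difference called 0 of 8, with 0 at an unadjusted p under 0.05, and 0% of all genes called higher. The step from GM to DM3 inside knockdown cells also called 0 of 8, with 8 at an unadjusted p under 0.05, beside 0.0145% of all genes. These comparisons share libraries with the ones above. The median of the fitted log2 fold changes over the 8 was 2.04 in GM and 4.92 on DM3, against medians of -0.01 and -0.05 over all genes. The GM median of log2 fold changes was 0.78 without knockdown GM replicate 2 and 3.67 without knockdown GM replicate 1, whereas that of DM3 stayed between 4.77 and 4.96 with any 1 library left out. It was 2.97 and 6.19 with members at 0 in controls set at their floor-based bound and the 2 members with 1 or 2 control reads at their counted ratio.

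**Figure D2:**
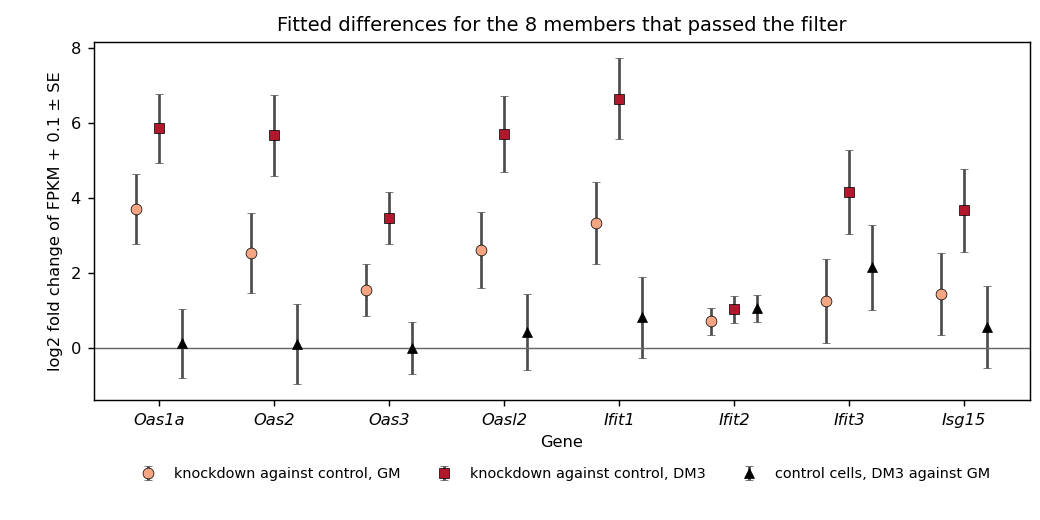
Fitted log2 fold change of FPKM + 0.1 with its SE for the 8 members that passed the filter, for knockdown against control in GM and on DM3 and for DM3 against GM in control cells (2 libraries per group). The DM3 points run from 1.03 for Ifit2 to 6.66 for Ifit1, and the points of control differentiation have intervals of 1 SE that reach 0 for all genes other than Ifit2 and Ifit3. Points of Oas1a, Oas2 and Oas3 depend on the added 0.1, because their control libraries are at or near 0.

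The mix of members differed between the groups, on a scale that allows for gene length. Ifit2 made up 74.0% and 20.0% of the summed FPKM in control GM and 41.5% and 38.3% in control DM3, but 6.21% and 5.30% in knockdown DM3. Ifit3 made up 50.3% and 48.4% of the sum in knockdown DM3, followed by Ifit1 at 22.7% and 20.1% and Isg15 at 13.0% and 18.8%. In control DM3 Ifit1 made up 1.98% and 3.72%. All Oas and Oas-like genes together were a small part of the sum in C2C12 cells, with Oasl2 the largest of them at 4.87% and 4.85% in knockdown DM3.

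**Figure D3:**
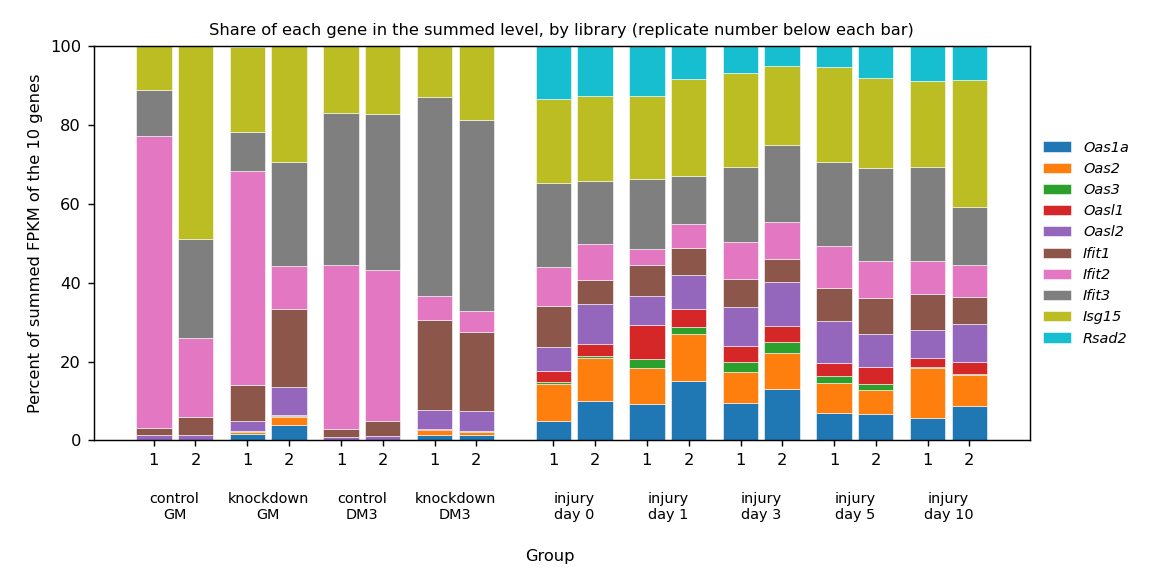
Stacked bars giving each gene's percent of the summed FPKM of the 10 genes, 1 bar per library, with C2C12 groups on the left and muscle by injury day on the right. Ifit2 gives way to Ifit3 and Ifit1 in knockdown DM3, whereas the muscle bars are spread over more genes, with Isg15 and Ifit3 the broadest bands in all of them except replicate 2 of day 1, where Oas1a exceeds Ifit3.

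Differentiation of control cells was not itself a comparison by which the genes were chosen, and it was tested. Its libraries are also the control side of the knockdown comparisons, so the test is not independent of that choice. Oasl2 entered it only through a filter passed in knockdown libraries. Of the 5 members with more than 3 reads in control cells, none was called (limma, smallest adjusted p = 0.215, for Ifit2, the 1 gene at an unadjusted p under 0.05). Of all genes, 0.767% were called higher and 0.376% lower. The log2 fold change from GM to DM3 was 1.06 ± 0.36 for Ifit2, 2.15 ± 1.13 for Ifit3 (limma adjusted p = 0.348), 0.82 ± 1.09 for Ifit1, 0.55 ± 1.09 for Isg15 and 0.42 ± 1.01 for Oasl2 (SE). Without control GM replicate 1, Ifit2 was called and the values of Ifit1 and Isg15 changed sign. Oas1a, Oas2 and Oas3 had 0 to 2 reads in each control group, so they could not have been called and get no fold.

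Other features of the libraries moved with the members. Muscle fibre markers (Acta1, Ckm, Mylpf and Tnnt3) summed to 638.5 and 640.8 FPKM in control DM3 but 18.8 and 14.3 FPKM in knockdown DM3. Myog, a driver of myoblast differentiation, was at 89.1 and 83.3 FPKM in control DM3 against 3.504 and 2.28 FPKM in knockdown DM3. Of these lists, Myod1 and Ckm were called lower, beside 0.687% of all genes, and Tnnt3 was added with the replicate block. The knockdown cells on DM3 thus differed from control cells in both respects at once, and the part of differentiation state in the level of the interferon effectors was not tested. The paper reports more myosin heavy chain protein, more fusion and higher RT-qPCR levels of fusion genes in knockdown cells after induction. Those are other measures, but their direction is opposite to that of the fibre marker RNA here. The cause of this difference was not tested. In GM, fibre markers summed to 148 and 22.0 FPKM in the control libraries and 99.5 and 4.98 FPKM in the knockdown libraries, lower in replicate 2 of both arms, where Isg15, Ifit1 and Ifit3 were higher.

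The rest of the pathway was followed through lists that were also drawn up with results known. Their DM3 counts, here and in the next paragraphs, stand beside 1.29% of all genes called higher, or 2.31% with the replicate block. Some genes of the lists, like some members, passed the filter only through knockdown libraries. Mx2, for example, was at most at 0.0287 FPKM in any control library. Such genes had to differ, so the list counts and medians are a description and lend no support. None of the 20 interferon ligand genes passed the filter, and 17 were at 0 in all 8 libraries. Ifnb1, the gene of interferon beta, had 1 read, in replicate 2 of knockdown DM3, where the depth could not show a low level. Among receptors and signal carriers, 2 of 13 were called higher on DM3, Irf9 and Ifnar2, and the list median was 0.62. Irf9 was at 2.38 and 2.50 FPKM in control and 14.8 and 17.4 FPKM in knockdown cells. Irf7, a factor that amplifies interferon production, was at 0.493 and 0.398 FPKM against 9.27 and 10.8 FPKM. With the replicate block 4 of 13 were called, Irf7 among them.

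Of the sensors of double-stranded RNA, 2 of 8 were called higher on DM3, Ifih1 (MDA5) and Dhx58 (LGP2), with a list median of 1.61. Ifih1 was at 0.170 and 0.0515 FPKM in control and 2.71 and 2.18 FPKM in knockdown cells. Adar, the editor of double-stranded RNA, was at 5.93 and 5.14 FPKM against 12.1 and 12.9 FPKM and was not called. Adding the block raised the count to 3 with Tlr3.

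The partners of the members were less uniform. Usp18, which strips Isg15 from proteins, was the 1 of 5 tested partners called, at 0.0523 and 0.0861 FPKM in control DM3 against 11.7 and 12.8 FPKM in knockdown DM3. Ube2l6, the conjugating enzyme of Isg15, was already at 23.8 and 25.7 FPKM in control DM3 and at 35.1 and 37.6 FPKM in knockdown DM3. Cmpk2, the neighbour of Rsad2, was as low as Rsad2, at 0 in both control DM3 libraries and at 0.543 and 0.442 FPKM in knockdown cells.

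Among relatives of the Oas and Ifit genes, 2 of the 4 tested were called, Oas1b and Oas1c, with a list median of 4.24. Oas1b was at 0.0183 and 0.0302 FPKM in control DM3 and 2.94 and 3.01 FPKM in knockdown DM3. The interferon-induced GTPases had 7 of 10 called higher and a median of 3.46 (9 of 10 called with the block, Ifi47 and Irgm1 being added), with Irgm2 at 0.830 and 0.7001 FPKM against 20.1 and 17.6 FPKM. Of 15 other effectors tested, 3 were called (Bst2, Parp9 and Dtx3l), 6 with the block, and the median was 1.96. No gene of these lists was called lower on DM3, and the median over all genes was -0.05.

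The genes whose pattern over the 8 libraries lay closest to the mean of the 8 standardised members were Colec10 (Pearson r = 0.995), Ifi44 (0.992), Mx2 (0.986), Cyb5d2 (0.985) and Triqk (0.981), out of 11542 genes compared. Mx2 is an interferon-induced GTPase, and Ifi44 is another interferon-induced gene. Cyb5d2 showed the pattern over a narrow range, from 2.47 to 4.05 FPKM. The libraries share stage and replicate structure, so these r values are a description. Among the members themselves the median r was 0.910, and the lowest was 0.583, between Ifit2 and Isg15.

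In regenerating TA muscle, the 10 genes were low on day 0, at their highest on days 3 and 5, and near day 0 levels on day 10. Their summed level was 15.5 and 18.9 FPKM on day 0, 17.1 and 34.3 FPKM on day 1, 76.2 and 87.6 FPKM on day 3, 34.5 and 124.7 FPKM on day 5, and 12.8 and 21.7 FPKM on day 10. All 10 passed the filter in this table. Every member was higher in both day 3 libraries than in both of day 0, beside 38.9% of 16753 genes. The fit called 9 of 10 on day 3, all but Rsad2, beside 24.5% of all genes called higher and 24.3% lower. The median log2 fold change was 2.27, against 0.01 over all genes.

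The count on day 3 depended on which libraries were used. It was 2 without day 0 replicate 1, 3 without day 3 replicate 1, 1 without day 3 replicate 2 and 3 with a term for libraries that express Xist. The Xist-expressing day 3 library was above all 4 libraries of days 0 and 10, which also express Xist, for 10 of 10 members, beside 38.3% of all genes. Muscle is a mixture of cells, so a change in the number of cells of a type and a change in RNA per cell cannot be told apart in these bulk samples.

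Oas3 had the largest ratio to day 0, being nearly absent from uninjured muscle. It was at 0.0568 and 0.0848 FPKM on day 0, 0.365 and 0.592 FPKM on day 1, 1.85 and 2.46 FPKM on day 3, 0.599 and 2.10 FPKM on day 5, and 0.0462 and 0.0960 FPKM on day 10. The ratio of means was 30.5 on day 3 and 19.1 on day 5. Oas1a went from 0.766 and 1.87 FPKM on day 0 to 7.26 and 11.4 FPKM on day 3, and Oas2 from 1.46 and 2.07 to 6.02 and 8.03 FPKM. Oasl1 went from 0.431 and 0.603 to 3.07 and 3.52 FPKM, and Oasl2 from 0.932 and 1.89 to 7.54 and 9.67 FPKM.

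Isg15 and Ifit3 had the highest levels of the set in 9 of 10 muscle libraries, the exception being replicate 2 of day 1, where Oas1a at 5.13 FPKM exceeded Ifit3 at 4.23 FPKM. Isg15 was at 3.29 and 4.06 FPKM on day 0, 18.2 and 17.5 FPKM on day 3, 8.28 and 28.5 FPKM on day 5, and 2.81 and 6.98 FPKM on day 10. Ifit3 was at 3.27 and 3.05 FPKM on day 0, 14.3 and 17.1 FPKM on day 3, 7.28 and 29.2 FPKM on day 5, and 3.04 and 3.20 FPKM on day 10. Ifit1 and Ifit2, the neighbours of Ifit3, lay closer to each other than in C2C12 cells on DM3, with 5.38 and 5.19 FPKM for Ifit1 and 7.24 and 8.31 FPKM for Ifit2 on day 3. Rsad2, at or near 0 in C2C12 cells, was at 2.09 and 2.38 FPKM on day 0 and 5.25 and 4.41 FPKM on day 3, the smallest day 3 ratio of the set at 2.16.

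**Figure D4:**
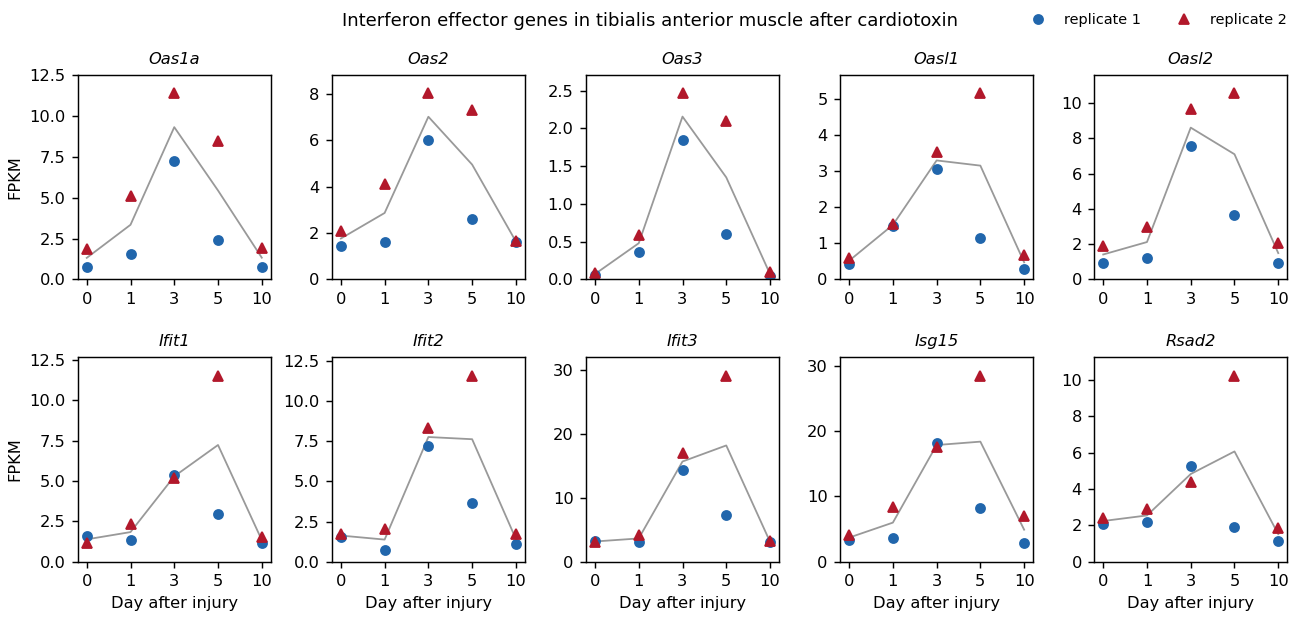
FPKM of each gene on days 0, 1, 3, 5 and 10 after cardiotoxin, with circles for replicate 1, triangles for replicate 2 and a grey line through the means (days evenly spaced). All 10 genes are above day 0 in both day 3 libraries, replicate 2 of day 5 lies above replicate 1 for every gene, and day 10 lies near day 0.

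On day 1 none of the 10 was called (limma, 1 of 10 at an unadjusted p under 0.05), beside 3.53% of all genes called higher. Oas3 and Oasl1 alone did not overlap day 0, beside 25.5% of all genes, with Oasl1 at 1.47 and 1.55 FPKM. On day 5, 9 of 10 did not overlap day 0, beside 34.6%, and 6 were called (Oas3, Oasl1, Oasl2, Ifit1, Ifit2 and Ifit3), beside 12.9%. The day 5 count was 0 without day 0 replicate 1 or day 5 replicate 2, 1 without day 0 replicate 2, 2 without either day 3 library, and 0 in a fit of days 0 and 5 alone or with the Xist term. Rsad2 was the exception to the separation, at 1.90 FPKM in replicate 1 of day 5, under both day 0 values, and 10.2 FPKM in replicate 2. Both day 0 libraries expressed Xist, whereas all libraries of days 1 and 5 expressed Y-linked genes. The day after injury and the sex or source of the animals therefore cannot be told apart in these contrasts.

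For no member did the day 5 libraries lie apart from those of day 3, so their order cannot be given. The mean was highest on day 3 for 6 genes and on day 5 for 4. On day 10 none was called against day 0 (limma, 0 of 10 at an unadjusted p under 0.05), beside 0.00597% of all genes. Rsad2 was at 1.15 and 1.88 FPKM on day 10, against 2.09 and 2.38 FPKM on day 0. Against day 3, 9 of 10 were called lower on day 10, beside 18.8%, a count that dropped to 1 without day 10 replicate 1, without either day 3 library, or with the Xist term.

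The 2 libraries of day 5 stood apart in the members more than in the rest of the transcriptome. Replicate 2 exceeded replicate 1 by at least 1 log2 unit in 10 of 10 members, with a median difference of 1.77, whereas 3.43% of 16753 genes differed as much in that direction. The ratio ran from 2.83 for Oas2 to 5.40 for Rsad2. Macrophage markers differed less between these libraries, with Adgre1 at 7.60 and 9.89 FPKM and C1qa at 72.2 and 92.5 FPKM, and fibre markers summed to 37070 and 38630 FPKM. Irf7 was at 5.27 and 20.2 FPKM and Mx1 at 1.04 and 4.14 FPKM, a like step in genes that are not members. The day 5 contrast was chosen after the values had been seen, and its cause was not tested. A gap in the same direction was present on other days. On day 1, 5 of 10 members were at least 1 log2 unit higher in replicate 2, beside 7.34% of genes. It was 4 of 10 on day 10, beside 8.31%, 1 of 10 on day 0, beside 7.37%, and 0 of 10 on day 3, beside 3.24%.

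In C2C12 cells 8 of 10 members were at least 1 log2 unit higher in replicate 2 of knockdown GM, beside 7.74% of 13824 genes. In control GM this held for 3 of 10 members beside 17.4% of genes, and on DM3 for 0 of 10 in either arm. Oas1a, Oas2, Oas3, Oasl1 and Rsad2 were at 0 in both control GM libraries and could not differ there. The counts of control and knockdown GM therefore do not rest on the same genes.

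**Figure D5:**
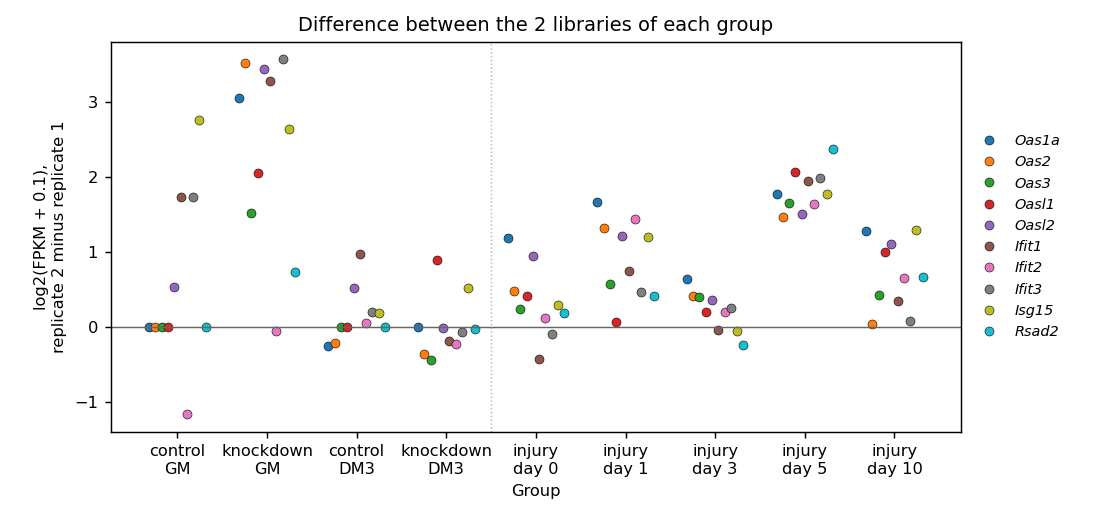
Difference in log2(FPKM + 0.1) between replicate 2 and replicate 1 for each gene in each group, with C2C12 groups left of the dotted line and muscle right of it. The members lie between 1.46 and 2.37 on day 5 and between -0.45 and 0.89 on day 3 and in knockdown DM3, and in knockdown GM all but Ifit2 lie above 0.

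Cell type markers changed over the same days. All 6 macrophage markers were called higher on day 3, and their sum was 17.3 and 33.2 FPKM on day 0, 541.9 and 511.8 FPKM on day 3 and 178.9 and 226.7 FPKM on day 5. Day 1 held 109 and 114 FPKM of macrophage markers, and the members then summed to 17.1 and 34.3 FPKM against 15.5 and 18.9 FPKM on day 0. T and NK cell markers summed to 0.191 and 0.714 FPKM on day 0, 1.72 and 0.644 FPKM on day 1, and 5.02 and 4.87 FPKM on day 3. All 4 fibre markers were called lower on day 3. On the same day 2 of 2 tested T and NK cell markers and 4 of 5 myogenic cell markers were called higher. So were 1 of 4 fibroadipogenic and 1 of 3 tested neutrophil markers, and 1 of 4 endothelial markers was called lower. Of all genes, 24.5% were called higher and 24.3% lower on that day. The part of infiltrating cells in the level of the members was not tested.

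The wider pathway was described in muscle with the same lists. The day 3 counts stand beside 24.5% of all genes called higher and 24.3% called lower. Ligand genes were again at or near 0, with 16 of 20 at 0 in all 10 libraries and at most 3 reads, for Ifng in replicate 1 of day 3. On day 3, 10 of 13 receptors and signal carriers were called higher and Ifngr2 lower, with Irf7 at 1.91 and 3.87 FPKM on day 0 and 11.9 and 18.6 FPKM on day 3. Of the RNA sensors, 6 of 8 were called higher, and Mavs, the adaptor that relays their signal, was called lower, at 19.8 and 24.7 FPKM on day 0 and 8.31 and 8.63 FPKM on day 3. Of the partners, 4 of 6 were called higher, among them Usp18, at 1.21 and 1.74 FPKM on day 0 and 3.47 and 3.72 FPKM on day 3. Of the GTPases 6 of 11 and of the other effectors 14 of 16 were called higher. List medians on the log2 scale lay between 1.16 for receptors and signal carriers and 1.81 for relatives of the members, below the 2.27 of the members.

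Mettl3 itself varied little in muscle, from 3.59 FPKM on day 5 to 4.97 FPKM on day 1, with a log2 fold change of -0.10 ± 0.15 (SE) on day 3. The genes closest to the members over the 10 muscle libraries were Adar (Pearson r = 0.990), Stat2 (0.985), Rnf213 (0.982), Ifih1 (0.982) and Parp12 (0.981), out of 12276 genes compared. Stat2 was at 2.65 and 3.36 FPKM on day 0, 6.89 and 8.17 FPKM on day 3, and 4.30 and 9.01 FPKM on day 5, with replicate 2 again the higher library of day 5. None of these 5 was among the 5 closest in C2C12 cells. The lowest r between members in muscle was 0.805, for Oasl1 with Ifit2.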

How the data were processed

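The authors aligned reads to GRCm38 (Ensembl) with HISAT2, counted them with featureCounts and deposited FPKM from the fpkm function of DESeq2, separately for 8 C2C12 libraries and 10 muscle libraries. Versions and strand settings are not given in the sources used here, and groups were compared only within a table. No counts were used. Reads behind low values came from whole steps of FPKM times GENCODE M21 exon length (98.56% to 98.81% of low values whole in the knockdown table and 96.65% to 97.66% in the other, within 0.02 reads), and intervals and floors cover counting error only.

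Genes with at least 0.5 FPKM in 2 libraries were fitted on log2(FPKM + 0.1), which understates changes of low genes, with limma 3.58.1 in R 4.3.3 (trend, all groups of a table together, Benjamini-Hochberg over 13824 or 16753 genes, called at 0.05). An exact permutation test of 2 libraries against 2 cannot pass 0.05, so calls rest on the model.

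The members and lists were chosen with earlier results of these data known. Genes named are Mettl3, the members, genes of the lists, sex-linked genes and, per table, the 5 genes with at least 1 FPKM on average whose log2 values correlate best with the members' standardised mean. Overlap and Mx1 or Irf7 on day 5 were picked after values were seen.

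Same-numbered libraries deviated together in the knockdown table (6 correlations, 0.278 to 0.680, all over 0.1), so the block is given there where it changes a count. Among the muscle libraries, 2 of 10 correlations exceeded 0.1. Alternatives were other pseudocounts, filters, scalings, fits of only the groups compared, the block, a fold threshold, a term for Xist and each library left out. Promoters are RefSeq's for GRCm38.p6, and other coordinates are of GRCm38. The overexpression libraries were not analysed here. Some genes of the lists are not reported here by name.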

Additional observations from a re-analysis of the deposited data

How the results depend on the processing

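The number of members called on DM3 was 2 of 8 as reported, 5 with a pseudocount of 1, 1 with 0.01, 8 in a fit of only the DM3 groups and 4 with the replicate block, and 0 to 6 with a library left out. On day 3 it was 9 of 10, 3 with the Xist term and 1 to 10 with a library left out. On day 5 it was 6, but 1 with no filter, 2 after quantile normalization, 0 in a fit of days 0 and 5 alone, 0 with the Xist term, and 0 to 6 with a library left out. Day 10 against day 3 gave 9, 1 with the Xist term and 1 to 10 with a library left out. Control differentiation and knockdown differentiation gave 0, and 0 to 1 with a library left out, the gene being Ifit2. A lone library was then assumed to vary like the other groups. The count was 0 under every alternative run for GM, for the difference between stages, for day 1 and for day 10 against day 0. The log2 fold change of Ifit1, control differentiation, was -0.04436 without control GM replicate 1 and 1.681 without replicate 2, and the log2 fold change of Isg15, control differentiation, was -0.8294 and 1.934. In muscle, where the libraries share only a number, the replicate block gave 9 on day 5 in place of 6. Of all 16753 genes it called 2352 higher in place of 2169. The block changed no other count of members in either table. Except for the block, the share of all genes called is not given beside the alternative counts. They show only how the calls depend on the setting. The cause of these shifts was not tested, beyond the fewer libraries or genes that each setting uses. With 2 libraries per group, and 0 to 2 reads in their control groups, the size of the Oas ratios is poorly bounded.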
